A study of Lentinus brumalis with 11 samples.

Results

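A set of 108 genes of the white-rot fungus Polyporus brumalis (named Lentinus brumalis in the sample labels) stood near its liquid-culture level after 4 days on wheat straw and well above that level after 15 days. White-rot fungi are wood-decaying basidiomycetes that break down lignin, the aromatic polymer of plant cell walls, as well as cellulose and hemicellulose. They secrete oxidative enzymes and carbohydrate-active enzymes to do so, and solid-state fermentation (SSF) grows the mycelium on moist plant material in place of a liquid medium. Genes for many of these enzymes respond to contact with plant material. The genes described here are those with most of their rise in group mean after Day 4, and some already differed from the control on Day 4.

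The members were chosen from group means of log2(normalised count + 1), where a normalised count is the number of reads of a gene divided by a size factor of its library. A member had a Day 4 mean less than 1 above or below the control mean, a Day 15 mean at least 2 above both the control and the Day 4 means, and a Day 15 mean of at least 7. Of 18244 genes in the count table, 109 met these limits. One of them, 1349968, an AA3 family oxidoreductase, is in an enzyme list of the study and was left out with the genes of the lists held here, which left 108 members. All 108 passed the filter on low counts, which kept 15462 genes. Control, Day 4 and Day 15 values chose the members, so differences among those 3 groups are a description, and calls in them are counted only beside the share of all genes called. Adjusted p-values of members are given only for Day 10 against Day 4 and Day 10 against control, since the Day 10 libraries were not used in the choice. The Day 4 and control libraries on the other side of these contrasts were used in it. Day 15 against Day 10 sets a group chosen to be high against one that was not, so it too is given without p-values.

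The study sequenced RNA of 1 dikaryotic strain, BRFM 985, after SSF on sterilised wheat straw in packed glass columns at 3 times, Day 4 (2 libraries), Day 10 (3 libraries) and Day 15 (3 libraries). The control was mycelium kept for 10 days in still liquid culture on 2% malt extract (3 libraries). The SSF inoculum had been grown for 6 days on the same medium, and the straw received a solution of copper, iron and manganese sulphates and a stream of moist air. The inoculum was also ground before it was put on the straw. The straw groups therefore differ from the control in substrate, solid support, added metals, aeration and handling of the mycelium at once, which cannot be told apart. Day 10 and Day 15 cultures were also older than the control, which cannot be told apart from the rest. Day 4 cultures, with 6 liquid and 4 straw days, matched its 10 days. The methods section of the study gives a longer time for the inoculum, so the match may not be exact. Only the comparisons among Days 4, 10 and 15 are between straw cultures. Each library came from the labelled culture of 1 strain, and the replicates are called biological by the study. For straw composition and mycelium quantity the study combined or homogenised the contents of several columns, and the sources used here do not give whether an RNA library drew on a single column. The p-values measure the spread between these libraries, which may in part be technical. The reads were mapped to the genome of a single monokaryon derived from that strain. In bulk RNA, fewer hyphae of one state and less RNA per hypha cannot be told apart.

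Library totals ran from 20368063 to 42408348 counts and between 15836 and 16090 genes had a count in each library. The lowest count of a member was 8 in any library and 93 in the Day 15 libraries, and 105 members had at least 100 counts in every Day 15 library. Totals were not level in what they hold: scaling by library totals alone moved the median log2 fold change of all tested genes by -0.37 for Day 4 against control, by -0.23 for Day 10 against control, by -0.26 for Day 15 against control, by 0.15 for Day 10 against Day 4 and by 0.12 for Day 15 against Day 4. The scaling used for the calls (TMM) and the median-of-ratios scaling of the levels differed by less than 0.05.

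The gene models carry numbers only. The reference table pairs them with locus tags and spans but names no product, and no list of the study describes a member, so none is given a role here. The members spanned 180 to 5299 bp from start to end of the gene model, with a median of 1344 bp against 1447 bp over all genes.

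The set grew from a minor to a visible share of the transcriptome. Its summed reads were 0.437, 0.455 and 0.443% of all counts in the control libraries, 0.302 and 0.367% on Day 4, 2.30, 2.34 and 1.72% on Day 10, and 2.83, 2.89 and 2.80% on Day 15. Both Day 4 libraries were below all controls and every Day 10 library was above them, and no Day 10 library reached a Day 15 library. Shares rest on library totals, and that scaling alone moved all tested genes by a median of -0.37 (log2) for Day 4 against control. With size factors the median member stood at 7.93 in the control and 7.98 on Day 4. The lower Day 4 shares are therefore not read as a general fall of the members. The group means were 0.445 ± 0.0091% (SD, n = 3) in the control, 0.334 ± 0.046% (n = 2) on Day 4, 2.12 ± 0.349% (n = 3) on Day 10 and 2.84 ± 0.045% (n = 3) on Day 15. The 95% Wilson intervals of the single shares were at most 0.0072 percentage points to either side and cover counting error only. The high Day 15 share follows from the choice of members.

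On the log2(normalised count + 1) scale the median member had a level of 7.93 in the control, 7.98 on Day 4, 9.92 on Day 10 and 10.87 on Day 15. Over all tested genes the corresponding medians were 8.39, 8.50, 8.51 and 8.49. A level above 12, taken here as high transcription, was reached by 7 members in the control, 6 on Day 4, 26 on Day 10 and 40 on Day 15. Of all genes in the count table, 5.9, 7.7, 6.7 and 6.9% reached it in the same order. The choice of members favours a high Day 15 count. The difference between Day 15 and control lay between 2 and 3 in 66 members, between 3 and 4 in 26, and at 4 or more in 16.

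The rise had its widest range in members that were scarce in liquid culture. The 20 members with a control level under 6 had a median difference between Day 15 and control of 2.77 and a maximum of 7.95. The 36 members with control levels between 6 and 8 had a median of 2.68 and a maximum of 5.95, the 29 between 8 and 10 had 2.69 and 5.58, and the 23 at 10 or more had 2.64 and 4.42. The limit of 2 bounds every rise from below and holds these medians close. The Day 15 level of at least 7 sets a higher bound for the scarcest members, so their rises are in part set by the choice.

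**Figure D1:**
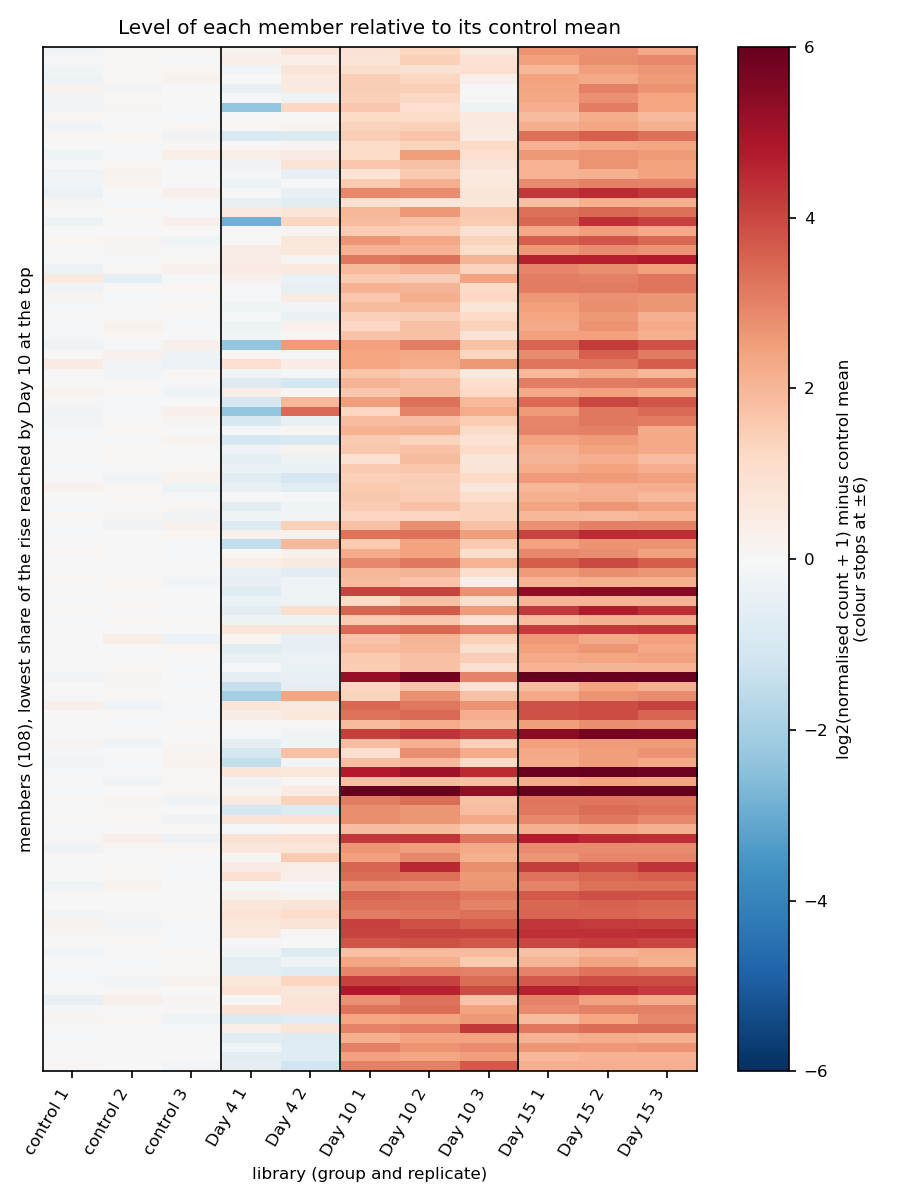
Each row is 1 of the 108 members and each column 1 library, and colour gives log2(normalised count + 1) minus the mean of the 3 control libraries. Rows run down from the lowest to the highest share of the Day 4 to Day 15 rise reached by Day 10. The Day 4 columns are pale except for a few rows where replicate 1 is blue and replicate 2 is red, and the Day 10 replicate 3 column is paler than the other Day 10 columns in most rows.

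Members of this kind were a minority of the genes that ended high. A Day 15 mean at least 2 above control and of at least 7 was seen in 804 genes, of which 598 (74.4%) stood 1 or more above control on Day 4 already, 165 (20.5%) were within 1 of control on Day 4 and 41 (5.10%) were 1 or more below it. Of the 165, 56 missed the limit on the difference between Day 15 and Day 4. The genes left out as listed by the study (oxidative enzymes, carbohydrate-active enzymes, transporters and detoxification proteins) number 125 in the count table. The list of its core straw genes was held here only in part, the set the study describes being larger, so a member may belong to the rest of that set.

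On Day 10 nearly the whole set was above its Day 4 level. By edgeR's quasi-likelihood test with Benjamini-Hochberg adjustment over all tested genes, 98 of the 108 members were higher on Day 10 than on Day 4, where 22.3% of all tested genes were called higher. No member was called lower, where 22.0% of all tested genes were, none at an unadjusted p under 0.05, and the DESeq2 Wald test also called 98 higher and 0 lower. The Day 4 side of this contrast was held low by the choice of members. The median log2 fold change was 1.91 (range -0.07 to 6.19), against 0.03 over all tested genes. In 97 members every Day 10 library lay above both Day 4 libraries, where 27.9% of all tested genes did so.

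Against the control, 107 of 108 members were higher on Day 10, where 31.5% of all tested genes were called higher, and none was lower, where 31.1% of all tested genes were called lower. None was lower at an unadjusted p under 0.05 or by DESeq2 either, and DESeq2 called 107 higher. The median log2 fold change was 1.85 (range 0.78 to 6.48), against -0.02 over all tested genes. Every Day 10 library lay above every control library in 105 members, against 33.4% of all tested genes. The member not called was 1485523, with a log2 fold change of 0.96 ± 0.58 (SE, adjusted p = 0.162). The control side was likewise held low by the choice of members, and both Day 10 comparisons use the same 3 Day 10 libraries.

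Day 15 against Day 10 is a description, since the Day 15 means were chosen to be high. In that contrast 72 members were called higher, where 11.7% of all tested genes were called higher, and 2 were called lower, where 12.4% of all tested genes were called lower. The choice of members favours higher calls. The median log2 fold change was 0.83 (range -1.09 to 2.29), with 98 members above 0 and 10 below, and the median over all tested genes was 0.00. Every Day 15 library lay above every Day 10 library in 85 members, against 19.4% of all tested genes.

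The calls in the contrasts that chose the set are given for completeness, and nothing is read from them. Day 15 was higher than control in 108 members (33.0% of all tested genes were called higher) and higher than Day 4 in 106 (28.6% of all tested genes). Day 4 was higher than control in 16 members (30.1% of all tested genes) and lower in 19 (32.2% of all tested genes), and 73 were not called. A member within 1 on the log2 scale could thus still be called on Day 4, and the label of an unchanged Day 4 level means a small difference and not an absent one. The difference between Day 4 and control was above 0 in 54 members and below 0 in 54, and it was under 0.5 in size in 65. With scaling by library totals alone, 33 members were above 0 and 75 below.

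The calls of the 2 steps, of which the second rests on the Day 15 values that chose the set, divide the members into 5 courses as a description. In 28 members (25.9%) the level was higher on Day 10 than on Day 4 and Day 15 was not called different from Day 10. In 68 members (63.0%) both steps were higher. In 4 members (3.70%) only the second step was called, in 2 (1.85%) the second step was downward, and in 6 (5.56%) neither step was called. A step that was not called is not shown to be absent. With a fold limit of 1 on the log2 scale added to the calls, the courses held 65, 29, 7, 1 and 6 members in the same order.

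**Figure D2:**
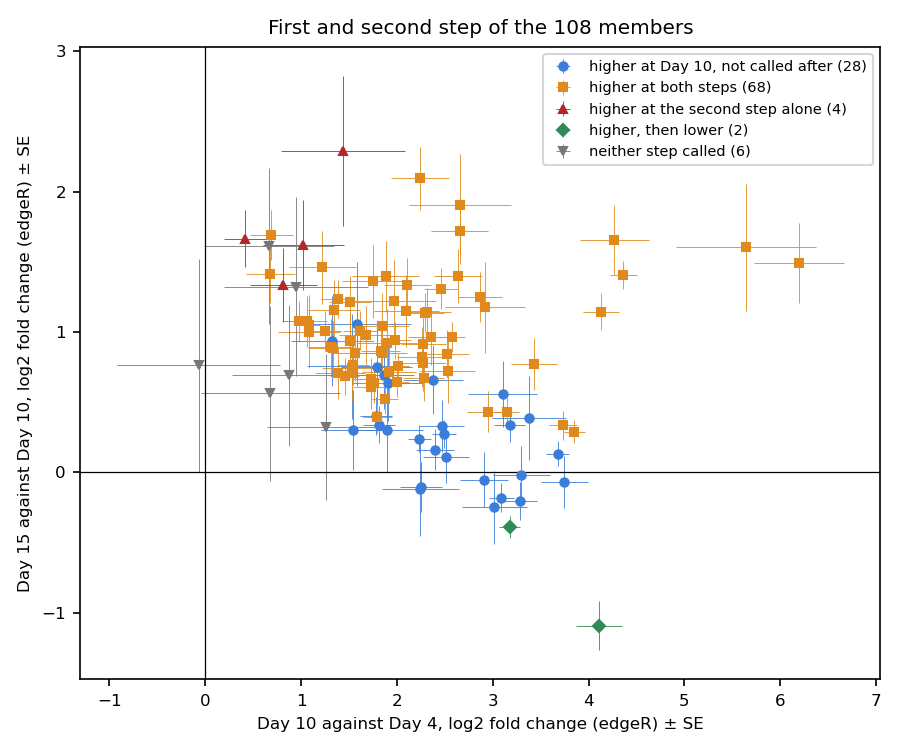
Each point is a member, with the edgeR log2 fold change of Day 10 against Day 4 across and of Day 15 against Day 10 upward, and bars giving the standard errors. Of the 108 members, 68 were called higher at both steps and 28 at the first alone, and both green diamonds lie below 0 on the vertical axis.

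A second measure of course is the share of the log2 difference between Day 15 and Day 4 that had been reached by Day 10. The median member had reached 68.7% of it, with quartiles of 60.1 and 80.4% and a range of 18.7 to 134.9%. Under 25% had been reached by 1 member, 25 to 50% by 10, 50 to 75% by 60, 75 to 100% by 27, and 100% or more by 10. Members that were higher on Day 10 without a further call had a median share of 88.4%, and those higher at both steps had 65.8%.

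The 6 members with the largest Day 15 difference from control had reached 58.1 to 78.5% of their rise after Day 4 by Day 10. Gene 1371196 had 28.4, 32.0 and 33.5 normalised counts in the control libraries, 34.9 and 44.4 on Day 4, 4057, 3180 and 1304 on Day 10, and 6807, 8539 and 8751 on Day 15. The Day 4 libraries of this gene lie just above the controls, and each later group lies far above the one before it without overlap. Its log2 fold change was 6.19 ± 0.47 for Day 10 against Day 4 (73.2-fold, adjusted p = 3.8e-07) and 1.50 ± 0.29 for Day 15 against Day 10. Day 15 was 252-fold over control, the largest ratio in the set.

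Gene 1390413 had 49.0, 62.6 and 55.6 normalised counts in the control, 37.3 and 40.2 on Day 4, 2128, 3166 and 449 on Day 10, and 4919, 7491 and 5038 on Day 15. Both Day 4 libraries were under the controls, and Day 10 replicate 3 was far below its group though above every Day 4 and control library. The log2 fold change of Day 10 against Day 4 was 5.65 ± 0.73 (adjusted p = 4.3e-05), and that of Day 15 against Day 10 was 1.60 ± 0.45.

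Gene 112417 had 104, 107 and 119 normalised counts in the control, 182 and 179 on Day 4, 2989, 3813 and 2496 on Day 10, and 6581, 7759 and 6260 on Day 15. No groups overlap in this gene, which was also somewhat above control on Day 4. Its log2 fold change was 4.13 ± 0.19 for Day 10 against Day 4 (adjusted p = 5.3e-09) and 1.15 ± 0.13 for Day 15 against Day 10.

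Gene 1451166 had the smallest standard errors of the 6. It had 303, 309 and 319 normalised counts in the control, 285 and 272 on Day 4, 5495, 6218 and 5198 on Day 10, and 13075, 16453 and 15421 on Day 15. Day 4 was slightly under the control and the later groups did not overlap. The first step was 20.6-fold (log2 fold change 4.36 ± 0.14, adjusted p = 5.6e-10) and the second 2.65-fold (1.41 ± 0.10).

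Genes 1096688 and 206333 had similar courses. Gene 1096688 had 137, 137 and 140 normalised counts in the control, 83.0 and 114 on Day 4, 2336, 2298 and 932 on Day 10, and 5535, 5962 and 6062 on Day 15. Gene 206333 had 305, 289 and 334 in the control, 421 and 350 on Day 4, 2800, 3103 and 1265 on Day 10, and 7519, 7795 and 8310 on Day 15. Day 4 was below control in the first gene and above it in the second, and in both Day 10 replicate 3 was well under the other Day 10 libraries. The log2 fold change of Day 10 against Day 4 was 4.27 ± 0.36 for 1096688 (adjusted p = 9.5e-07) and 2.65 ± 0.30 for 206333 (adjusted p = 1.2e-05). The gene model of 206333 overlaps a neighbouring model, and since the library kit named in the labels does not mark strand, reads from the shared stretch cannot be told apart.

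**Figure D3:**
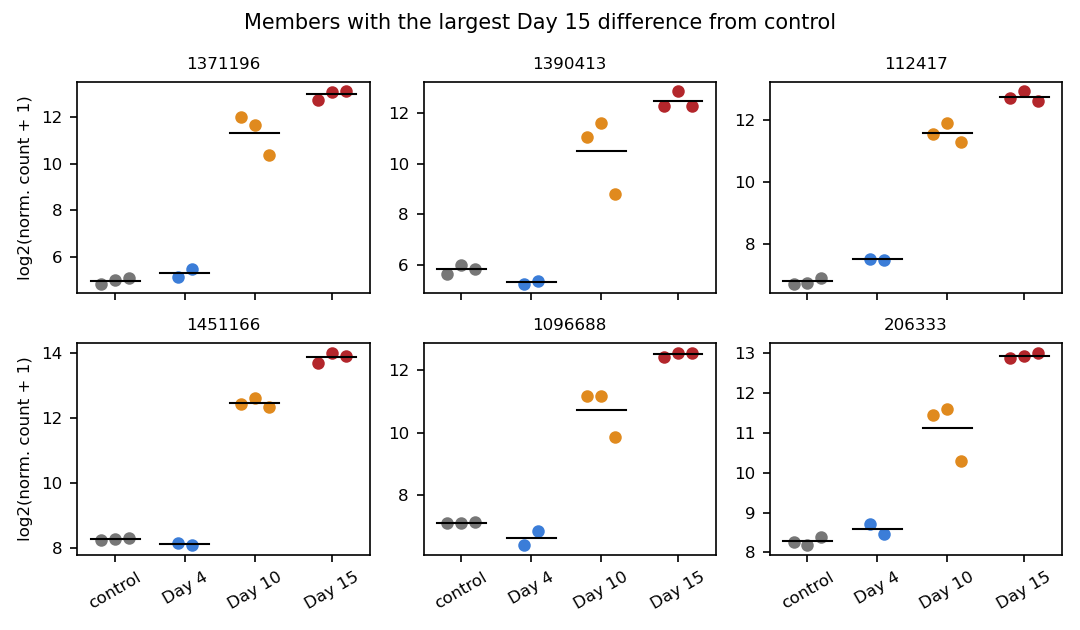
Each panel is one of the 6 members with the largest Day 15 difference from control, points are single libraries on the log2(normalised count + 1) scale, and bars are group means. In 1371196 the Day 15 points lie near 13 and the control points near 5.

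The set was carried by few genes in reads. On Day 15 the most abundant member held 12.1% of all member counts, the first 4 held 38.8% and the first 10 held 56.4%. The most abundant, 1409790, had 15556, 16530 and 14977 normalised counts in the control, 14018 and 9583 on Day 4, 127819, 100872 and 110482 on Day 10, and 98240, 96035 and 101015 on Day 15. Its Day 4 libraries were below the controls, and its Day 10 libraries overlap the Day 15 libraries. Day 10 was 9.77-fold over Day 4 (log2 fold change 3.29 ± 0.18, adjusted p = 2.2e-08), and Day 15 against Day 10 was -0.20 ± 0.14 on the log2 scale.

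Gene 1500721 came next on Day 15. It had 9826, 10349 and 9681 normalised counts in the control, 4842 and 5642 on Day 4, 68945, 61495 and 35978 on Day 10, and 89328, 100422 and 95312 on Day 15. Both Day 4 libraries were under the controls and all Day 10 libraries were under all Day 15 libraries. Its log2 fold change was 3.43 ± 0.24 for Day 10 against Day 4 (adjusted p = 1.7e-07) and 0.77 ± 0.18 for Day 15 against Day 10.

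Gene 1409190 had 13014, 13350 and 14076 normalised counts in the control, 10383 and 10069 on Day 4, 40532, 43029 and 23650 on Day 10, and 62997, 71619 and 60733 on Day 15. It was below control on Day 4, and no Day 10 library reached a Day 15 library. The log2 fold change was 1.83 ± 0.21 for Day 10 against Day 4 (adjusted p = 1.4e-05) and 0.86 ± 0.17 for Day 15 against Day 10.

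Gene 1400420 had 2804, 2923 and 2729 normalised counts in the control, 5065 and 4583 on Day 4, 78897, 69004 and 42934 on Day 10, and 70104, 61172 and 51086 on Day 15. Day 4 was above control without overlap, and the Day 10 and Day 15 libraries were interleaved. Day 10 against Day 4 was 13.4-fold (log2 fold change 3.75 ± 0.24, adjusted p = 1e-07), and Day 15 against Day 10 was -0.07 ± 0.18 on the log2 scale.

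Gene 1465162 had 4200, 4327 and 4240 normalised counts in the control, 4467 and 12621 on Day 4, 23359, 31613 and 18647 on Day 10, and 26404, 31932 and 32457 on Day 15. Day 4 replicate 1 was close to the controls and replicate 2 far above them. This gene was also nearest inside the limit on the difference between Day 15 and Day 4, at 2.00, and its model overlaps a neighbour. Gene 1466638 had 3587, 5977 and 5510 in the control, 5201 and 8412 on Day 4, 32638, 46851 and 15871 on Day 10, and 38022, 26608 and 23002 on Day 15, so that its Day 10 libraries surrounded the Day 15 libraries. The first step was called in both (log2 fold change 1.54 ± 0.34, adjusted p = 0.0023 for 1465162, and 2.25 ± 0.41, adjusted p = 0.00061 for 1466638).

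Counts per gene favour long models, so levels between genes are compared per kb of gene span. On that scale the highest on Day 15 were 2 short models, 1404846 (364 bp, 69617 normalised counts per kb) and 1339377 (333 bp, 51707 per kb), ahead of 1409790 with 40390 per kb. The first 2 were picked out after their values were seen. Gene 1404846 had 4226, 4490 and 4901 normalised counts in the control, 2951 and 3839 on Day 4, 12833, 15294 and 11408 on Day 10, and 23008, 28426 and 24588 on Day 15. It was lower on Day 4 than in every control library, and higher at each later group without overlap. The median member had 162, 202, 836 and 1475 normalised counts per kb in the control, Day 4, Day 10 and Day 15 groups.

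In 10 members the Day 10 mean was at or above the mean of Day 15, the last day sampled, and 2 of these were called lower at the second step. Gene 198836 had 300, 275 and 246 normalised counts in the control, 185 and 123 on Day 4, 2198, 2217 and 3472 on Day 10, and 1195, 1258 and 1255 on Day 15. All Day 10 libraries were above all Day 15 libraries, and Day 10 replicate 3, low in most members, was the highest here. Its log2 fold change was 4.11 ± 0.24 for Day 10 against Day 4 (adjusted p = 4.4e-08) and -1.09 ± 0.17 for Day 15 against Day 10.

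Gene 1407672 had 1466, 1387 and 1412 normalised counts in the control, 886 and 867 on Day 4, 7751, 7343 and 8213 on Day 10, and 5738, 6009 and 6100 on Day 15. The same ordering held as in 198836, with less spread. Its log2 fold change was 3.18 ± 0.11 for Day 10 against Day 4 (adjusted p = 5.6e-10) and -0.39 ± 0.08 for Day 15 against Day 10. Gene 1352348 had 4495, 4741 and 4780 in the control, 2890 and 2752 on Day 4, 20258, 25099 and 25266 on Day 10, and 19709, 22162 and 20653 on Day 15, with a second step of -0.18 ± 0.10 on the log2 scale.

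At the other end stood genes with the smaller part of their rise by Day 10, though all 4 named here were called higher on Day 10 than in the control. Gene 1401192 had 1341, 1627 and 1602 normalised counts in the control, 1772 and 2627 on Day 4, 2748, 3729 and 2191 on Day 10, and 9940, 10319 and 7270 on Day 15. Its Day 4 and Day 10 libraries overlap and its Day 15 libraries are clear of both. Day 10 against Day 4 was 0.42 ± 0.22 on the log2 scale (adjusted p = 0.149) and Day 15 against Day 10 was 1.67 ± 0.20 (3.17-fold). It had reached 18.7% of its rise by Day 10, the lowest share in the set, and Day 10 against control was 0.90 ± 0.20 (1.87-fold, adjusted p = 0.0015). Day 10 against Day 4 was called higher without Day 10 replicate 3 (log2 fold change 0.60), with library totals alone (0.57) and with a replicate block (0.51).

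Gene 1476999 had 51.8, 52.6 and 46.5 normalised counts in the control, 66.2 and 66.6 on Day 4, 87.8, 136 and 91.8 on Day 10, and 285, 356 and 379 on Day 15. Gene 1479883 had 61.3, 71.9 and 72.7 in the control, 61.4 and 114 on Day 4, 142, 131 and 137 on Day 10, and 274, 389 and 429 on Day 15. In both genes the Day 10 libraries lay just above the Day 4 libraries and well under the Day 15 libraries. Their first steps were 0.69 ± 0.22 (adjusted p = 0.0233) and 0.68 ± 0.26 (adjusted p = 0.0474) on the log2 scale, and both calls were lost in several alternative fits, for 1479883 in 8 of the 11 fits with a library left out and with median-of-ratios scaling, and for 1476999 without either Day 4 library or without Day 10 replicate 2. Their second steps were 1.69 ± 0.18 and 1.41 ± 0.21. Against control, Day 10 was 1.04 ± 0.19 higher in 1476999 (adjusted p = 0.00033) and 0.98 ± 0.22 higher in 1479883 (adjusted p = 0.00165).

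Gene 19388 was a low one, with 20.1, 26.0 and 29.0 normalised counts in the control, 25.3 and 37.4 on Day 4, 71.5, 59.6 and 31.0 on Day 10, and 135, 124 and 148 on Day 15. Day 10 replicate 3 fell between the Day 4 libraries, and the first step was not called (0.82 ± 0.35, adjusted p = 0.0755), while Day 10 against control was (1.09 ± 0.29, adjusted p = 0.00514). The second step was 1.34 ± 0.26. Without Day 10 replicate 3 the first step was called, at 1.12. The 4 genes called at the second step alone became 2 without Day 10 replicate 3 and 10 without Day 10 replicate 2.

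The Day 10 libraries did not agree on how far the set had moved. Day 10 replicate 3 was the lowest of the 3 in 85 members (78.7%), against 37.1% of all tested genes. Replicate 2 was the highest in 62 members (57.4%), against 32.5% of all tested genes. The median member was 0.62 lower in replicate 3 than in the mean of the other 2 libraries on the log2 scale. The median share of the rise reached was 74.5% in replicate 1, 81.4% in replicate 2 and 55.4% in replicate 3. Among the 4316 other genes called higher on Day 15 than on Day 4, replicate 3 was the lowest Day 10 library in 2479 (57.4%). Among 4520 genes called lower it was the highest in 2361 (52.2%), against 35.2% of all tested genes. The within-group SD of the median member was 0.43 on Day 10, against 0.22 over all tested genes, and on Day 15 it was 0.15, against 0.14. Without replicate 3 the median share reached was 76.3%, and 100 members were called higher on Day 10 than on Day 4.

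**Figure D4:**
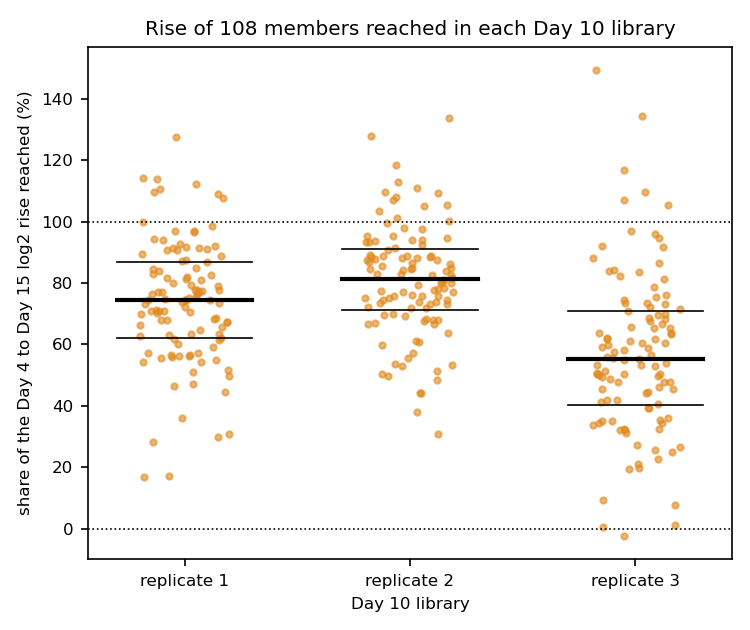
Each point is a member in 1 Day 10 library, placed by the share of its Day 4 to Day 15 log2 rise reached there, with the median as a thick bar and the quartiles as thin bars. The medians are 74.5%, 81.4% and 55.4% in replicates 1, 2 and 3, and the dotted lines mark the Day 4 and Day 15 means.

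The Day 4 libraries disagreed in another way. Of the 108 members, 9 (8.33%) had Day 4 libraries more than 2 apart on the log2 scale, where 1.02% of all tested genes did. In all 9, replicate 1 was below every control library and replicate 2 above every control library, as in 40 of the 157 tested genes so far apart. At such a gap, the limit on the Day 4 mean forces 1 library below and the other above the control mean. Only which replicate was the low one was left free. The mean near control that placed these genes in the set was thus the mean of a low and a high library. No member had replicate 1 above replicate 2 by more than 0.66, and replicate 2 was the higher in 72 members (66.7%), against 50.7% of all tested genes. These 9 genes were picked out after their values were seen, and the mean is no description of either library.

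The widest gap was in 1400796, which had 136, 153 and 194 normalised counts in the control, 30.1 and 1678 on Day 4, 374, 1267 and 754 on Day 10, and 954, 1436 and 1673 on Day 15. Its Day 4 replicate 2 was above every Day 15 library, and replicate 1 was under every other library. Gene 226945, the most abundant of the 9, had 1739, 1859 and 2167 in the control, 907 and 6448 on Day 4, 3834, 13083 and 9037 on Day 10, and 9326, 10786 and 12436 on Day 15. In 7 of the 9 genes, Day 10 replicate 2 was also the highest Day 10 library, as it was in 57.4% of all members. The remaining genes were 1468631, 1406385, 1363444, 1485523, 1402281, 1337765 and 1409344, with gaps between 2.24 and 4.92 on the log2 scale.

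The edgeR fit works on mean counts and not on mean logs, and so for 1400796 it gave Day 4 a log2 fold change of 2.35 over control. The 6 members with neither step called were all among these 9 genes, as were both members not called on Day 15 against Day 4. Members with both Day 4 libraries less than 1 from the control mean numbered 85. Among these 85, a choice made after seeing the data, 82 were higher on Day 10 than on Day 4, where 22.3% of all tested genes were. On Day 15 against Day 10, 64 were higher and 1 lower, where 11.7% and 12.4% of all tested genes were. The median share these 85 had reached by Day 10 was 68.5%. This cut tightens a limit on the same control and Day 4 values that chose the set, so it too favours higher calls.

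**Figure D5:**
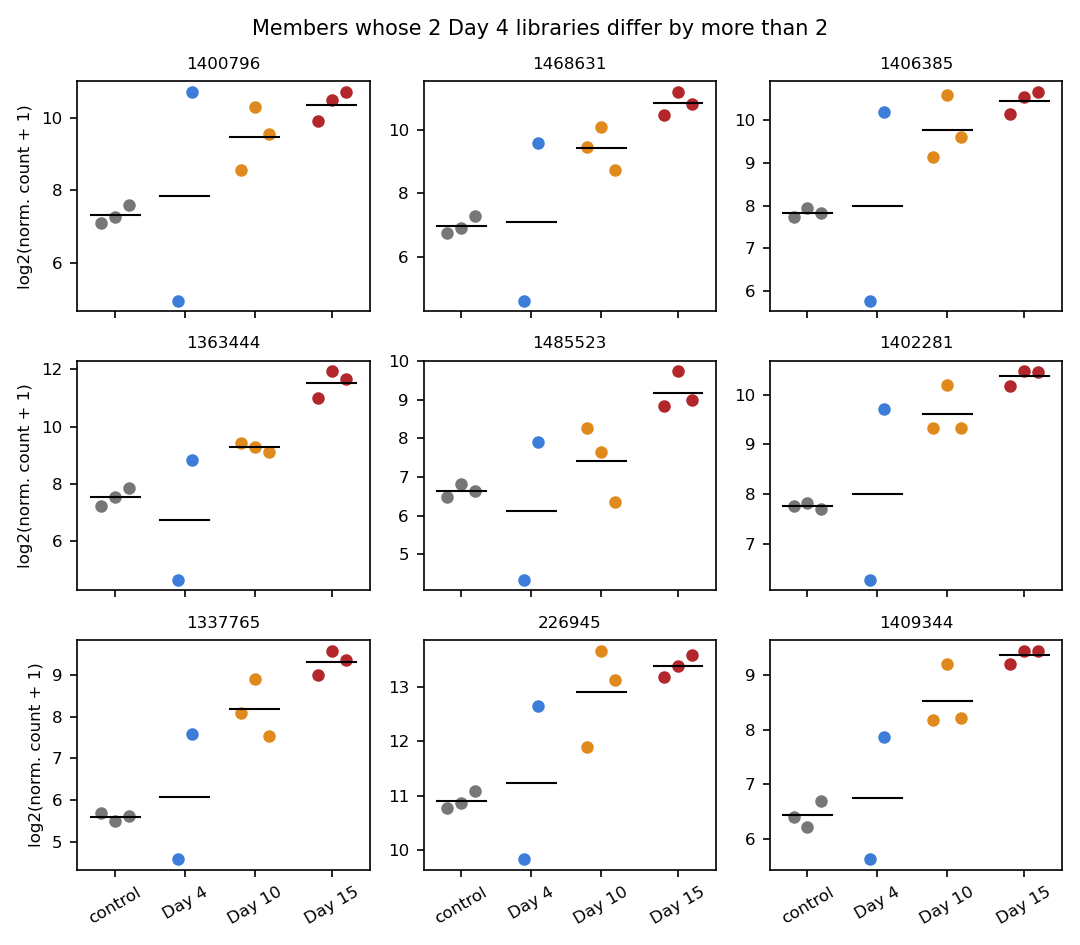
Each panel is one of the 9 members whose Day 4 libraries differ by more than 2, with single libraries as points on the log2(normalised count + 1) scale and group means as bars. In every panel 1 Day 4 point lies below and the other above all control points.

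The members were compared with the genes beside them on the assembly, by the order in the reference table. Of the 108 members, 16 had another member as immediate neighbour, which made 8 pairs. Both genes were called higher at both steps in 6 pairs and at the first step alone in 2 pairs, where 63.0% and 25.9% of all members had those courses. Those shares are per gene and not per pair, and no background was counted for pairs. The shares reached by Day 10 still differed within pairs, as in 1487121 (91.7%) and 1487122 (73.9%). The models of 1401486 and 1401487 overlap by 200 bp, so reads may be shared between them. Genes 1339377 and 746257, 331 bp apart, had levels of 10.33 and 9.74 in the control, 10.77 and 10.27 on Day 4, 13.04 and 12.68 on Day 10, and 14.06 and 13.49 on Day 15 on the log2(normalised count + 1) scale. They lay within 0.6 of each other in every group. The pair 206333 and 1400677 overlaps by 411 bp.

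Genes next to a member but outside the set were counted in the same way. Of 184 tested neighbours, 75 (40.8%) were higher on Day 10 than on Day 4, against 22.3% of all tested genes, and 30 (16.3%) were lower, against 22.0%. Among the 157 that did not overlap a member's model, 59 (37.6%) were higher and 27 (17.2%) lower. On Day 15 against Day 4, 71 of these 157 (45.2%) were higher, against 28.6% of all tested genes. On Day 4 against control, by contrast, 53 of the 184 (28.8%) were higher and 61 (33.2%) lower, near the 30.1% and 32.2% of all tested genes. These are counts without a test, since neighbouring genes are not independent. Gene models overlapping an immediate neighbour made up 27.8% of the members and 24.7% of all genes, and 1405679, 1479883, 175124 and 19388 are among those members.

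The limits of the set cut through a continuous range of values. Just inside the Day 4 limits were 175124, at 0.996 above control, and 804489, at -0.98 from it. Just outside were 99254, at 1.009 above, and 1485553, at -1.005 from it. Gene 175124 had 247, 292 and 290 normalised counts in the control, 505 and 599 on Day 4, 2411, 2484 and 2751 on Day 10, and 3067, 3063 and 2929 on Day 15, so its Day 4 libraries were clear of the control although it counted as near it.

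For the difference between Day 15 and control, 1405679 (2.005) and 1396777 (2.009) were just inside and 1478832 (1.995) and 1300554 (1.992) just outside. For the difference between Day 15 and Day 4, 1465162 (2.005) and 1368305 (2.019) were inside and 1407303 (1.974) and 1490821 (1.967) outside. For the Day 15 level, 1486980 (7.04) and 1331159 (7.07) were inside and 1364431 (5.82) and 64728 (5.71) outside. Gene 1331159, the shortest model at 180 bp, had 22.3, 9.99 and 14.2 normalised counts in the control, 18.0 and 11.1 on Day 4, 45.1, 42.6 and 83.4 on Day 10, and 133, 125 and 143 on Day 15. Its control and Day 4 libraries overlap and rest on few reads.

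Which genes the rule takes changed with library totals more than their number did. With TMM scaling 105 genes met the rule, of which 104 were among the 108. With library totals in place of size factors, 103 genes met the rule, of which 76 were among the 108. With a Day 4 limit of 0.5 in place of 1, 65 of the 108 were kept. Leaving out Day 4 replicate 1 gave 91 genes, of which 83 were shared, and leaving out replicate 2 gave 117, of which 93 were shared.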

How the data were processed

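Counts of reads per gene were made and deposited by the authors: TopHat2 placed the reads, after trimming by Sickle at a quality of 20 and a length of 20, only unique matches were kept, and HTSeq counted them. Strand setting, overlap mode and versions of these tools: not given in the sources used here. Submitters' notes name DESeq 1.5. The labels state triplicate assays, and Day 4 has 2 libraries here. All 11 libraries were used.

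Levels are log2(count / median-of-ratios size factor + 1). Calls are from edgeR 4.0.16 in R 4.3.3 (TMM scaling, filterByExpr with minimum count 10 and total 15, 1 quasi-likelihood fit with a mean for each of 4 groups, 7 residual degrees of freedom, Benjamini-Hochberg adjusted p at or under 0.05 over 15462 genes). Standard errors were taken from each log2 fold change (its size over the root of the F statistic). P-values measure the spread between these libraries. Neighbours and spans come from the reference table of assembly Polbr1, matched for 18240 of 18244 IDs. Its rows name no product, so lists by product name were not made.

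Members and lists were chosen with earlier results of these data known. The text names the 6 members with the largest Day 15 difference from control, the 6 highest at Day 15, the 4 highest and 4 lowest in share reached by Day 10 among those called at Day 15 against Day 4, and the 2 genes nearest each limit on either side; others are said to be chosen after their values were seen or are pairs of neighbours. Alternatives were DESeq2 1.42.0, other scalings, filters, pseudocounts and limits, the 2 groups alone, a replicate block, and leaving out each library. Figures used matplotlib 3.10.9.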

Additional observations from a re-analysis of the deposited data

How the results depend on the processing

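In the comparisons of Day 10 and Day 15 with earlier groups, members called higher outnumbered those called lower in every alternative run. Members were chosen with control and Day 4 low and Day 15 high, which favours higher calls in each of these comparisons. The runs refit members already chosen, so their agreement adds no separate support. Members higher on Day 10 than on Day 4 ranged from 91 to 103 with each library left out in turn, those higher on Day 10 than control from 104 to 108, those higher on Day 15 than Day 10 from 59 to 77 (2 to 3 lower), and those higher on Day 15 than Day 4 from 103 to 108. Members called on Day 4 against control moved most: 16 higher became 5 with library totals alone and 1 with a fold limit of 1, and 19 lower became 44 and 1; with a library left out they ranged from 11 to 24 higher and from 13 to 31 lower (31 without Day 10 replicate 3). The fold limit also left 36 of 72 higher and 1 of 2 lower on Day 15 than on Day 10, and with both Day 4 libraries near control 1 was lower. With the fold limit the courses held 65, 29, 7 and 1 members in place of 28, 68, 4 and 2. Leave-one-out ranges were 23 to 30, 67 to 68, 2 to 10, and 2 to 3, with 4 to 6 where neither step was called, and 91 to 124 genes met the rule. A Day 4 limit of 0.5 left 65 members. Leaving out the 10 most abundant genes of the table from the totals raised the shares to 3.11% on Day 15 and 0.48% in the control. The median share reached by Day 10 ranged from 64.3 to 76.3%. With a library left out, the second step of 1400420 ranged from -0.29 to 0.12 (positive without Day 10 replicate 1, and at 0.04 without Day 15 replicate 3) and that of 1466638 from -0.45 to 0.26 (positive without Day 10 replicate 2, and at 0.03 without Day 15 replicate 3), and neither was called in any of these. The causes were not tested.

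Same-numbered Day 10 and Day 15 libraries deviated together only weakly (correlations across genes of 0.053, 0.036 and 0.035), so the numbers were not taken as pairs, though each Day 10 library correlated best with its own number. For Day 4 and Day 10, the groups of the main comparison, the same-numbered values were higher, at 0.144 and 0.147, but there are only 2 such pairs. With 2 Day 4 libraries the deviations from their mean are equal and opposite, so both values rest on the same Day 4 difference. With the replicate number as a block, 102 members were higher on Day 10 than Day 4 and 83 higher on Day 15 than Day 10, with 2 lower. Precision is limited by 2 libraries on Day 4.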
